A study of Homo sapiens with 6 samples.

Results

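The BCL2 family decides whether the outer membrane of the mitochondrion stays sealed or is opened, the step that commits a cell to intrinsic apoptosis. Here 10 of its genes were followed, namely the pro-survival BCL2, BCL2L1 and MCL1, the pore-forming effectors BAX and BAK1, and the BH3-only genes BCL2L11, BID, BAD, BIK and PMAIP1. They were chosen as the rows of the expression table whose Ensembl identifier carries 1 of these symbols in GENCODE release 29, and all 10 were found among the 29908 genes of the table. Messenger RNA was sequenced from Hep3B, an established human hepatocellular carcinoma cell line, in 3 libraries of Hep3B-Con cells infected with a control lentivirus (shControl) and 3 of Hep3B-KD cells infected with a lentivirus carrying a short hairpin RNA against DAGLA (shDAGLA). DAGLA encodes diacylglycerol lipase alpha, which makes the endocannabinoid 2-AG, and the comparison asks which transcripts differ when it is knocked down. All cells of both groups were infected and the stable cells were selected with puromycin. The labels name DMEM as the medium and the methods of the study name MEM-alpha. The knockdown was made with 1 hairpin in 1 cell line, and the labels do not say whether the replicates were separate cultures, so p-values measure the spread between these libraries, which may be technical.

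Pro-survival proteins hold the effectors in check, BAX and BAK1 form the pores through which cytochrome c leaves the mitochondrion, and BH3-only proteins either switch on the effectors or block the pro-survival proteins. The members meet through the BH3 region, a short helix that docks into a groove of the pro-survival and effector proteins. Much of the control over this family lies beyond the transcript, in cleavage of BID, phosphorylation of BAD and rapid turnover of MCL1, none of which is read by RNA sequencing.

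The codons of the BH3 core are shown because they are what the 10 members share in sequence beyond the rule that chose them. A leucine, any 3 residues, a glycine or serine and an aspartate were searched for in the coding sequence of each member in GENCODE release 29 (build GRCh38), and every member held the pattern. The same 6-codon pattern occurred in 28.3% of the 11263 expressed genes with a principal coding sequence, so a match alone does not mark the family. The capitals mark the codons of glycine or serine and of aspartate, and each run starts at the leucine codon, 5′ to 3′ on the coding strand.
BCL2: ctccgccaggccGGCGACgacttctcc
BCL2L1: ctgagggaggcaGGCGACgagtttgaa
MCL1: ttacgacgggttGGGGATggcgtgcag
BAX: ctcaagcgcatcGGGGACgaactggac
BAK1: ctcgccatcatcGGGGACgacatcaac
BCL2L11: ttgcggcgtattGGAGACgagtttaac
BID: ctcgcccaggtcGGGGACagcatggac
BAD: ctccggaggatgAGTGACgagtttgtg
BIK: ctggcctgcatcGGGGACgagatggac
PMAIP1: ctcaggagatttGGAGACaaactgaac
BAD was the member with a serine codon at the marked place, and the other members shown had a glycine codon there. BID held a second match at codon 71, and the run shown starts at codon 136 of 241 in its longest principal isoform. Of 3 members that passed the test, the BID run lies at chr22:17739418-17739444 on the minus strand in exon 4 of 6, the BAX run at chr19:48955787-48955813 on the plus strand in exon 3 of 6, and the BCL2L11 run at chr2:111150103-111150129 on the plus strand in exon 4 of 5.

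The hairpin itself is shown because its guide strand can pair with transcripts other than DAGLA through its seed, bases 2 to 8 counted from the 5′ end of the guide. The target is the sequence listed by the study, the guide is its reverse complement with the seed in capitals, and the BID site has the complement of the seed in capitals.
shDAGLA target: gcgacaacaaggccttcaa
guide strand: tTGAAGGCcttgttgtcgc
BID 3′ UTR site: tatttgaatgGCCTTCAtatcatccac
The 7-base match GCCTTCA was found in the longest annotated 3′ UTR of 1 of the 10 members, BID, where it starts at base 227 of 1442 (chr22:17735337-17735363 for the run shown, minus strand, GRCh38). Among the 11189 expressed genes with a 3′ UTR of at least 50 bases, 14.6% held the match.

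The deposited values are FPKM, reads scaled to the exon length of the gene and to the size of the library. Library totals recovered from them lay between 15861039 and 17572714 reads. Hep3B-KD was compared with Hep3B-Con by limma on log2(FPKM + 0.1), over 14221 genes that averaged at least 0.5 FPKM across the 6 libraries, and p-values were adjusted over all of these by the Benjamini-Hochberg method. Fold changes on this scale understate the change of low genes. DAGLA fell from 9.28 ± 0.228 to 4.62 ± 0.164 FPKM (SD, n = 3 in each group), and all Hep3B-KD values were below all Hep3B-Con values. Over all genes tested the log2 fold change had a median of 0.11, against which the changes below can be read. The 10 hepatocyte markers were all expressed, with 7 higher and 3 lower in Hep3B-KD. Of 13 stromal, endothelial and leukocyte markers, 11 were in the table and 3 passed the filter (COL1A1, LUM and PDGFRB). The summed FPKM of the 11 lay between 9.50 and 10.4 in Hep3B-Con and between 5.92 and 6.35 in Hep3B-KD, and VWF and CDH5 were at or near 0. PECAM1, under the filter, went the other way to the sum, from 0.197 ± 0.00704 to 0.339 ± 0.0626 FPKM (SD, n = 3 each) without overlap, on 25 to 48 reads per library.

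Of the 10 members, 8 passed the filter on low values and BCL2 and PMAIP1 did not. In Hep3B-KD 5 of the 8 passed an adjusted p under 0.05 from limma, a rule that 59.9% of all genes tested passed. BCL2L11 was the 1 member that rose, where 36.1% of all genes did, and BID, BAX, BCL2L1 and BAK1 were the 4 that fell, where 23.8% of all genes did. MCL1, BAD and BIK did not pass. The values of Hep3B-KD and Hep3B-Con did not overlap for 5 of the 8 members, against 66.9% of all genes. With a fold change of at least 2 added, 0 of the 8 members passed, against 8.83% of all genes. At an unadjusted p under 0.05 from limma 6 members passed, 0 of them at that fold, and voom on the recovered reads called 6 members (MCL1 in place of BIK), 0 of them at that fold. The median log2 fold change of the 8 members was -0.12. Calls in this comparison were common across the genome, and the members' share of calls was close to that of all genes.

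Among the members MCL1 had the highest FPKM in every library, and it encodes a short-lived pro-survival protein that holds BAK1 and several BH3-only proteins. MCL1 (chr1:150574551-150579738, minus strand) stood at 146, 141 and 140 FPKM in Hep3B-Con replicates 1 to 3 and at 130, 143 and 131 FPKM in Hep3B-KD. Replicate 2 of Hep3B-KD lay inside the range of Hep3B-Con, and the groups overlapped. The log2 fold change was -0.08 with a 95% interval from -0.17 to 0.01 (limma adjusted p = 0.114). The call depended on that library, since the log2 fold change was -0.12 without it (adjusted p = 0.00701). It also depended on the scaling, being -0.18 with libraries centred on the median log ratio (adjusted p = 0.00586) and 0.11 after quantile normalization (adjusted p = 0.0243).

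BCL2L1, which encodes the pro-survival protein BCL-XL, was the next most abundant member. BCL2L1 (chr20:31664452-31723989, minus strand) stood at 74.5, 74.8 and 74.5 FPKM in Hep3B-Con and at 60.4, 57.2 and 61.96 FPKM in Hep3B-KD. All 3 Hep3B-KD values lay below the 3 Hep3B-Con values, which differed among themselves by less than 1 FPKM. BCL2L1 fell 1.25-fold, a fitted log2 fold change of -0.32 ± 0.031 (SE; limma adjusted p = 0.000152). The antisense gene ABALON covers 43.0% of the exon bases of BCL2L1 and was listed at a mean of 2.34 FPKM, and the use of strand in the authors' counting is not given in the sources used here. The table holds 1 value per gene, so the long and short isoforms of BCL2L1, which act in opposite ways, were not told apart.

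BCL2, the founding member and a pro-survival protein, was close to undetected. BCL2 (chr18:63123346-63320128, minus strand) had 14, 22 and 15 reads in Hep3B-Con and 2, 2 and 5 reads in Hep3B-KD, or 0.0677, 0.108 and 0.0766 FPKM against 0.0107, 0.0106 and 0.0256 FPKM. The groups did not overlap. Summed over the libraries and scaled to their totals, Hep3B-Con had 5.33 times the BCL2 reads of Hep3B-KD, with an exact 95% interval from 2.60 to 12.3 that covers counting error only. BCL2 lay under the filter and has no test in the comparison above, and without any filter limma gave -0.67 on the log2 scale (adjusted p = 0.0412), a value set largely by the pseudocount. In bulk RNA, fewer cells with a transcript and less of it per cell cannot be told apart.

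Both effectors were lower in Hep3B-KD, BAX by more than BAK1. BAX (chr19:48954815-48961798, plus strand), which moves from the cytosol to the mitochondrion when activated, stood at 29.6, 28.1 and 30.3 FPKM in Hep3B-Con and at 21.2, 19.3 and 19.4 FPKM in Hep3B-KD. The gap between the groups was larger than the spread within either. BAX fell 1.47-fold, a fitted log2 fold change of -0.55 ± 0.0477 (SE; limma adjusted p = 8.58e-05).

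BAK1 (chr6:33572547-33580293, minus strand), which sits in the outer membrane of the mitochondrion, stood at 17.3, 18.7 and 18.5 FPKM in Hep3B-Con and at 16.0, 16.4 and 16.0 FPKM in Hep3B-KD. The lowest Hep3B-Con library lay a little above the highest Hep3B-KD library. BAK1 fell 1.12-fold, a fitted log2 fold change of -0.16 ± 0.0374 (SE; limma adjusted p = 0.00809). The ratio of BAX to BAK1 FPKM went from 1.62 ± 0.105 in Hep3B-Con to 1.24 ± 0.0774 in Hep3B-KD (SD, n = 3 each), without overlap.

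The BH3-only genes went in both directions. BID (chr22:17734138-17774770, minus strand), which caspase-8 cleaves to carry the death-receptor signal to mitochondria, stood at 19.9, 19.9 and 18.9 FPKM in Hep3B-Con and at 11.3, 10.1 and 11.2 FPKM in Hep3B-KD. Each Hep3B-KD library was well below each Hep3B-Con library. BID fell 1.79-fold, the largest change among the 8 members tested, with a fitted log2 fold change of -0.84 ± 0.0502 (SE; limma adjusted p = 1.68e-05). BID is also the member with the seed match shown above, and the part of that match in its fall was not tested. The members without a match in the 3′ UTR include BAX, BCL2L1 and BAK1, which fell, and BCL2L11, which rose.

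BCL2L11 (chr2:111119378-111168447, plus strand) encodes BIM, a BH3-only protein that binds all pro-survival members and can activate the effectors. Its FPKM was 8.84, 7.84 and 8.60 in Hep3B-Con and 13.7, 12.7 and 13.8 in Hep3B-KD. The 3 Hep3B-KD libraries lay above the 3 Hep3B-Con libraries. BCL2L11 rose 1.58-fold, a fitted log2 fold change of 0.66 ± 0.0585 (SE; limma adjusted p = 9.51e-05). On the other strand MIR4435-2HG covers 10.9% of the exon bases of BCL2L11 and was listed at a mean of 1.03 FPKM.

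BIK and BAD were expressed at a low level and did not pass. BIK (chr22:43110748-43129712, plus strand), a BH3-only protein of the endoplasmic reticulum, had 27, 24 and 38 reads in Hep3B-Con and 42, 34 and 46 in Hep3B-KD, or 1.61, 1.45 and 2.40 FPKM against 2.78, 2.22 and 2.91 FPKM. Hep3B-Con replicate 3 lay above Hep3B-KD replicate 2, and these were the libraries that overlapped. The log2 fold change was 0.53 with a 95% interval from 0.06 to 1.01 (limma adjusted p = 0.0536). Without Hep3B-Con replicate 3 it was 0.74 (adjusted p = 0.00667), and without Hep3B-KD replicate 2 it was 0.65 (adjusted p = 0.0464).

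BAD (chr11:64269830-64284704, minus strand), whose protein is held inactive by phosphorylation when survival kinases are on, had between 25 and 34 reads in Hep3B-Con and between 32 and 46 in Hep3B-KD. Its FPKM was 0.9995, 0.842 and 1.196 in Hep3B-Con and 1.29, 1.17 and 1.62 in Hep3B-KD. Hep3B-KD replicate 2 fell inside the Hep3B-Con range. The log2 fold change was 0.39 with a 95% interval from -0.04 to 0.82 (limma adjusted p = 0.101). GPR137 overlaps 23.6% of the exon bases of BAD on the other strand and was listed at a mean of 7.92 FPKM, more than BAD.

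PMAIP1 (chr18:59899948-59904306, plus strand), which encodes NOXA, a BH3-only partner of MCL1, had 2, 0 and 2 reads in Hep3B-Con and 3, 0 and 3 in Hep3B-KD. Every library was at or under 3 reads, which stand for 0.0764 to 0.0846 FPKM depending on the library, so no fold is given and a difference was not detectable at this depth.

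**Figure D1:**
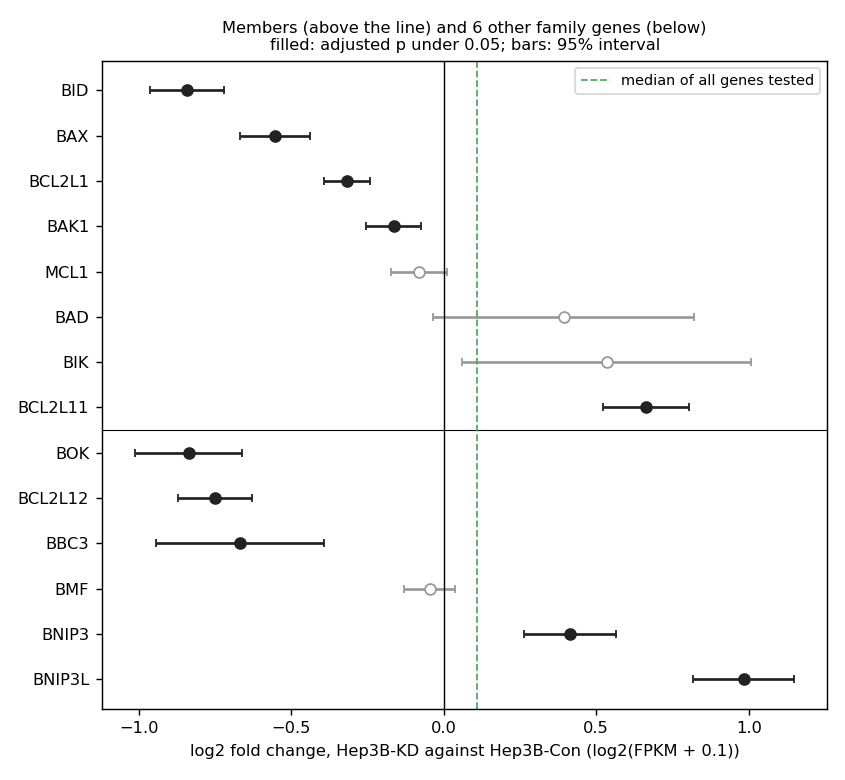
Log2 fold change of Hep3B-KD against Hep3B-Con on log2(FPKM + 0.1) (x axis) for the 8 members tested and, under the line, 6 other family genes named below, with 95% intervals; filled points have an adjusted p under 0.05. BID at -0.84 and BCL2L11 at 0.66 are the ends of the members' range, and the intervals of BAD and BIK are the widest among the members.

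Because FPKM is per length, levels of different members can be set side by side, with the union of all annotated exons as the length. The order given holds for those lengths and may differ for the isoforms in use. In Hep3B-Con the order was MCL1, BCL2L1, BAX, BID, BAK1, BCL2L11, BIK, BAD, BCL2 and PMAIP1, and each gene's lowest library lay above the highest library of the next. For BCL2 over PMAIP1 this rests on 0 to 2 PMAIP1 reads per library. A PMAIP1 library with 3 reads would stand at 0.0764 FPKM or more, above the lowest BCL2 library at 0.0677 FPKM. In Hep3B-KD BID stood behind BAK1 and BCL2L11, so that the fourth to sixth places were BAK1, BCL2L11 and BID, again without overlap. In those libraries PMAIP1 and BCL2, in the last 2 places, overlapped and were not distinguished.

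BCL2L11 and BID, the tested members at the ends of the range of fold changes and so set side by side after their values were seen, changed places in FPKM. The ratio of BCL2L11 to BID FPKM was 0.445, 0.394 and 0.455 in Hep3B-Con and 1.21, 1.25 and 1.24 in Hep3B-KD. By FPKM, BID was the higher in every Hep3B-Con library and BCL2L11 in every Hep3B-KD library. The exon lengths used were 6658 bases for BCL2L11 and 4446 bases for BID. Which of them stands higher depends on these lengths, and the isoforms in use were not determined. Another fixed length would scale the ratio alike in all libraries. Of the summed FPKM of the 5 BH3-only genes, BID took 63.4% ± 2.78 in Hep3B-Con and 38.4% ± 0.640 in Hep3B-KD (SD, n = 3 each), and BCL2L11 took 27.3% ± 1.06 and 47.3% ± 0.891. These shares leave out BH3-only genes that are not members. Among those, BMF stood at 48.2 FPKM in Hep3B-Con and 46.7 in Hep3B-KD, and BBC3 at 3.67 and 2.26. The shares are therefore of the chosen genes and not of all BH3-only transcripts. They are descriptions of the same values and were not tested.

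Summed over the 10 members, the level was 296 ± 3.16 FPKM in Hep3B-Con and 259 ± 2.53 FPKM in Hep3B-KD (SD, n = 3 each). The pro-survival genes made up 73.5% ± 0.525 of it in Hep3B-Con and 75.1% ± 1.14 in Hep3B-KD. The effectors made up 16.1% ± 0.443 and 13.9% ± 0.477, and neither share overlapped between the groups. The pro-survival gap was narrow, from 73.8% in the highest Hep3B-Con library to 74.2% in the lowest Hep3B-KD library. Within that share MCL1, which was not called, went from 48.2% ± 0.655 to 52.0% ± 2.20 of the sum. BCL2L1 went the other way, from 25.2% ± 0.316 to 23.1% ± 1.13. The share of the BH3-only genes, 10.4% ± 0.164 and 10.9% ± 0.820, overlapped. The ratio of BCL2L1 to BAX, a pro-survival gene to an effector, was 2.54 ± 0.102 in Hep3B-Con and 3.002 ± 0.179 in Hep3B-KD. That of MCL1 to BCL2L11 was 16.96 ± 0.910 and 10.1 ± 1.03, so the ratio of pro-survival to pro-apoptotic transcript was higher in Hep3B-KD for the first pair and lower for the other. In neither ratio did the groups overlap. Many other pairs are possible, and BCL2L11 was the only member called higher, so these pairs do not stand for the family.

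The gene profiles most like that of BID were sought by Pearson's r of log2(FPKM + 0.1) over the 6 libraries. SSTR2 (r = 0.999) and RPL29 (r = 0.999) had the highest values, and both were lower in Hep3B-KD. With 2 groups of 3 libraries such values are common, and 1057 genes reached an r of at least 0.98 with BID.

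The counts of the gene lists that follow stand beside 59.9% of all genes tested that were called, 36.1% higher and 23.8% lower. Of the 54 genes tested in these lists, 7 hold the seed match in the 3′ UTR, of which 4 were higher, 2 lower and 1 not called in Hep3B-KD.

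Among 14 other genes of the family or close to it, 9 passed the filter, with 4 higher, 3 lower and 2 not called, and a median log2 fold change of 0.12. BNIP3L, a BH3-like receptor for mitophagy, rose from 2.43 ± 0.160 (SD, n = 3) to 4.89 ± 0.224 FPKM (log2 fold change 0.98, limma adjusted p = 3.49e-05), and its relative BNIP3 rose by 0.41 on the log2 scale. BOK, an effector-like member, fell from 11.99 ± 0.879 to 6.67 ± 0.483 FPKM (log2 fold change -0.84, limma adjusted p = 9.31e-05). BBC3, which encodes the BH3-only protein PUMA, fell from 3.67 ± 0.448 to 2.26 ± 0.230 FPKM (log2 fold change -0.67, limma adjusted p = 0.00236). BCL2L12, also of the family by sequence, fell too (log2 fold change -0.75, limma adjusted p = 2.87e-05). BMF, a BH3-only gene more abundant than BID or BCL2L11 in every library, stood at 48.2 ± 1.57 and 46.7 ± 1.59 FPKM with overlap (limma adjusted p = 0.292), and with libraries centred on the median it was called (log2 fold change -0.15, limma adjusted p = 0.00983).

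Around the pore, 10 genes were followed, of released factors, of the apoptosome and of mitochondrial membrane proteins such as VDAC1. Of these 9 were tested, with 2 higher, 3 lower and 4 not called and a median log2 fold change of 0.01. VDAC1, a channel of the outer membrane of the mitochondrion, fell from 103 ± 0.605 to 66.2 ± 1.46 FPKM (log2 fold change -0.63, limma adjusted p = 1.79e-06). CYCS, which encodes cytochrome c, fell by 0.27 on the log2 scale. AIFM1 rose by 0.27 on the log2 scale, as did APAF1, the scaffold of the apoptosome, whose 3′ UTR holds the seed match. The call of APAF1 was lost after median centring (0.17, limma adjusted p = 0.0515) and after quantile normalization (0.15, limma adjusted p = 0.0722).

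All 9 caspases and genes of the death-receptor complex that acts on BID were tested, with 4 higher, 2 lower and 3 not called and a median log2 fold change of 0.41. Among those that rose were the initiator of the apoptosome CASP9, from 2.05 ± 0.250 to 3.14 ± 0.199 FPKM, and CASP6, an executioner, by 0.57 on the log2 scale. CASP10 had a log2 fold change of -0.61 and CASP2 of -0.37, both past the threshold, and the 3′ UTRs of both hold the seed match. The caspase-8 adaptor FADD varied from 5.09 to 14.4 FPKM within Hep3B-Con and from 8.25 to 20.3 within Hep3B-KD and was not called (limma adjusted p = 0.204). FADD passed without Hep3B-Con replicate 1, at a log2 fold change of 1.204 (limma adjusted p = 0.0333), and with voom, at 0.75 (adjusted p = 0.0235).

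Of the 7 inhibitor of apoptosis genes, 5 were tested, with 4 higher and 1 lower (median log2 fold change 0.44). BIRC3 was the only tested gene of these pathway lists whose fitted fold change was at least 2. It rose from 0.831 ± 0.139 to 2.08 ± 0.164 FPKM (log2 fold change 1.24, limma adjusted p = 0.000337), and its 3′ UTR holds the seed match as well. For BNIP3L the ratio of the group means was 2.02, and the fitted fold, with the pseudocount, was 1.98. Genes under the filter were not fitted. BIRC2 rose by 0.44 and BIRC6 by 0.45 on the log2 scale, and BIRC5 fell by 0.18.

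Among 12 transcription factors known to act on family genes, all tested, 5 were higher, 3 lower and 4 not called, with a median log2 fold change of 0.08. E2F1 rose from 12.5 ± 0.941 to 22.6 ± 0.315 FPKM (log2 fold change 0.85, limma adjusted p = 2.18e-05). MYC fell from 95.5 ± 1.01 to 53.0 ± 1.46 FPKM (log2 fold change -0.85, limma adjusted p = 1.05e-06) and ATF4 from 216 ± 6.06 to 129 ± 2.30 FPKM (log2 fold change -0.74, limma adjusted p = 1.85e-06).

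Of 10 genes that turn over or phosphorylate family proteins, all tested, 7 were higher, 1 lower and 2 not called, with a median log2 fold change of 0.31. BTRC, part of a ubiquitin ligase, rose from 3.65 ± 0.144 to 5.56 ± 0.0379 FPKM (log2 fold change 0.60, limma adjusted p = 6.23e-05). USP9X, a deubiquitinase of MCL1, and GSK3B, a kinase that marks MCL1 for degradation, rose by 0.31 and 0.30 on the log2 scale. Of the PIM kinases, which phosphorylate BAD, PIM2 rose by 0.57 and PIM1 by 0.40, and PIM3 had a log2 fold change of -0.45, past the threshold. PIM1 lost its call after quantile normalization (0.24, limma adjusted p = 0.0832).

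**Figure D2:**
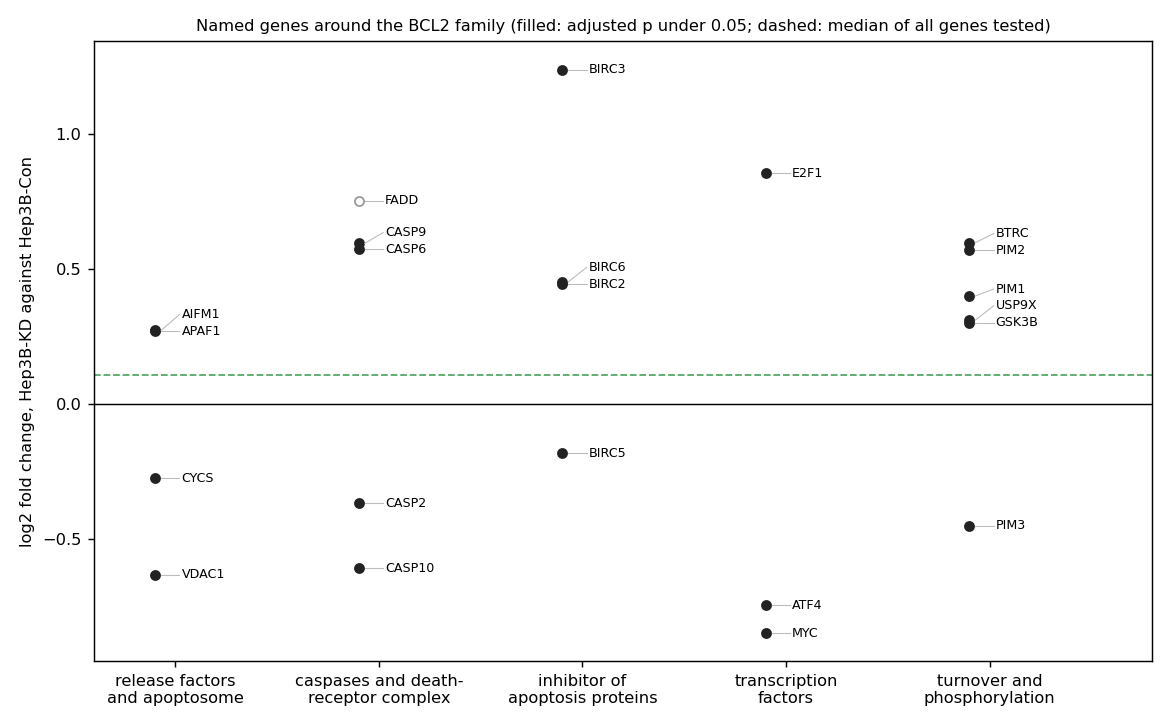
Log2 fold change of Hep3B-KD against Hep3B-Con on log2(FPKM + 0.1) (y axis) for the genes named above from 5 lists around the BCL2 family (x axis), filled where the adjusted p was under 0.05, with the median of all genes tested as a dashed line. BIRC3 at 1.24 is the highest point and MYC at -0.85 the lowest.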

How the data were processed

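RNA sequencing of 3 Hep3B-Con and 3 Hep3B-KD libraries was used, grouped by the sample labels. The authors deposited FPKM values, scaled by them to gene length and library size. The submitters' processing notes list Bowtie2 2.0.6, TopHat2 2.0.12 and GRCh37, whereas all 29908 identifiers and the exon lengths matched GENCODE release 29 (GRCh38), whose coordinates are printed. With those lengths 100% of values above 0 came out within 0.01 of a whole read. The table held 0 unused value columns.

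The log2(FPKM + 0.1) values of the 14221 rows with a mean of at least 0.5 FPKM were fitted with limma 3.58.1 (lmFit, eBayes with trend) in R 4.3.3, with Benjamini-Hochberg adjustment. In simulated reads with known changes, genes of at least 5 FPKM were mostly recovered at a low dispersion, and genes under 5 FPKM, such as BAD and BIK, much less often; at a high dispersion few 2-fold changes were recovered at any level. The split at 5 FPKM was set after a first version of this check, over all changed genes, fell short of its aim. The simulated dispersions were fixed values not matched to these libraries, so which case applies to them was not determined. Replicate libraries differed by more than counting noise, so none was counted as a duplicate. BCL2 reads were compared by an exact conditional interval.

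The members and gene lists were chosen with earlier results of these data known. Named genes were all members, all listed genes past a fold of 2, the 4 with the largest change in each list, and DAGLA; BNIP3, CASP2, CASP6, APAF1, BMF, USP9X, GSK3B and the stromal and endothelial markers named lie outside that rule and were chosen after their values were seen. Some genes that the rule names are not reported here; the list counts include them. All rows of the table entered the fit; a first fit with 1 row per repeated symbol was replaced after its results were seen and is kept as an alternative. The BH3 codons were searched in GENCODE coding sequences in place of RefSeq proteins, which were not used here. Coordinates, codons and seed matches were computed in Python 3.11.15 with biopython 1.88, pandas 2.3.3, numpy 2.4.6, scipy 1.17.1 and, for the figures, matplotlib 3.10.9. The alternatives tried were pseudocounts of 1 and 0.01, a filter at 1 FPKM or none, libraries rescaled to 1 sum, median centring, quantile normalization, no variance trend, a replicate block, voom on recovered reads, and each library left out.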

Additional observations from a re-analysis of the deposited data

How the results depend on the processing

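BID, BAX, BCL2L1, BAK1, BCL2L11 and BAD kept their direction and their side of the threshold in all 17 alternatives each, with log2 fold changes of BID from -0.95 to -0.79, of BAX from -0.66 to -0.50, of BCL2L1 from -0.42 to -0.19, of BAK1 from -0.27 to -0.14 and of BCL2L11 from 0.56 to 0.70. BIK passed with a mean of at least 1 FPKM (0.53), after rescaling to the same sum (0.56) and with the replicate block (0.53), and ranged from 0.40 to 0.74 with each library left out. MCL1 passed after median centring (-0.18) and with voom (-0.082), turned to 0.11 after quantile normalization, and ranged from -0.124 to -0.0579 with each library left out. BCL2 stood at -0.094 with a pseudocount of 1 and at -1.90 with 0.01. The members called numbered 5 to 7. The genes past a 2-fold change and an adjusted p under 0.05 numbered 503 with a pseudocount of 1. They numbered 1256 in the main fit and 1391 with a pseudocount of 0.01. Median centring gave 4064 higher and 4308 lower genes and quantile normalization 4270 and 3902, against 5133 and 3388. After quantile normalization BMF turned to 0.067, and APAF1 (0.149) and PIM1 (0.244) lost their calls; APAF1 also lost its call after median centring (0.166). Median centring shifts all genes of a library by the same amount on the log2 scale. A larger pseudocount shrinks the fold changes of low genes most. Why the libraries differed in median log ratio, and what moved the values after quantile normalization, was not tested.

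Same-numbered libraries did not deviate together (correlations of -0.013, -0.066 and -0.0011 over genes), so the numbers were not taken as pairs. With the replicate block 7919 genes passed, and BIK was the member whose call changed. Keeping 1 row per repeated symbol, an alternative chosen after seeing the data, gave 8529 genes and 5 members. No member's symbol is repeated in the table, so listing every row of a symbol had no value to give. BAD and BIK rest on 24 to 46 reads per library.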
